A study of Mus musculus with 26 samples.

Results

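The miR-99/100 and miR-125 families were followed as a group of 10 mature miRNAs, chosen by name: mmu-miR-99a-5p, mmu-miR-99a-3p, mmu-miR-99b-5p, mmu-miR-99b-3p, mmu-miR-100-5p, mmu-miR-125a-5p, mmu-miR-125a-3p, mmu-miR-125b-5p, mmu-miR-125b-1-3p and mmu-miR-125b-2-3p, written below without the prefix for mouse. These are 10 of the 1915 entries of the count table, and all 10 were among the 605 miRNAs kept by the filter on low counts. Small RNA was sequenced from CA1, a field of the mouse hippocampus needed for memory, in 26 libraries. The 10 Vorinostat libraries came from CamkdeltaC transgenic mice that drank Vorinostat, an inhibitor of histone deacetylases also called SAHA. The 7 transgenic vehicle libraries came from CamkdeltaC mice that drank vehicle, and the 9 wild type vehicle libraries came from littermates without the transgene that drank vehicle. Treatment began at an age of 2 months and lasted 4 weeks, so all mice were 3 months old at its end, and males and females were mixed. CamkdeltaC mice overexpress the CaMKII delta C kinase from a promoter of heart muscle and develop heart failure, so a brain difference in them is a difference in a tissue that the transgene does not target. Wild type mice on Vorinostat were not analysed here, so the drug was compared in transgenic mice only.

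A miRNA is cut from a hairpin, and its bases 2 to 8, the seed, pair with target mRNAs. The miR-99/100 and miR-125 families are old animal miRNAs that lie beside members of the let-7 family in shared primary transcripts. miR-125 is the mammalian relative of lin-4, the first miRNA found in worms, and both miR-125 and let-7 repress Lin28a, whose protein blocks the maturation of let-7. In neurons miR-125b is known to act with the fragile X protein on the NMDA receptor subunit NR2A, and miR-125a on the postsynaptic scaffold PSD-95. miR-99 and miR-100 are known to target Mtor and Igf1r of the growth factor pathway and the chromatin remodeller Smarca5.

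The mature sequences from RefSeq (GRCm38.p6) are shown because families and their near-identical members are set by them. Each is written 5′ to 3′ with the seed in capitals. First come the guide strands of the miR-99/100 family, which share the seed ACCCGUA.
miR-99a-5p: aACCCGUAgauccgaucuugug
miR-99b-5p: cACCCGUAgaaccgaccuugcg
miR-100-5p: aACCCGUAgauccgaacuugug
Next are the guide strands of the miR-125 family, which share the seed CCCUGAG.
miR-125a-5p: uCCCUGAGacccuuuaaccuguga
miR-125b-5p: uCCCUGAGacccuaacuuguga
Last are the strands from the other side of the hairpins, where only the miR-99 pair shares a seed.
miR-99a-3p: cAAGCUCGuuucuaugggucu
miR-99b-3p: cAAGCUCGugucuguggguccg
miR-125a-3p: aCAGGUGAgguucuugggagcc
miR-125b-1-3p: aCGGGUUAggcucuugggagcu
miR-125b-2-3p: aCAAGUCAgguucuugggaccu

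miR-99a-5p and miR-100-5p differ at 1 of 22 bases, U16A, with positions counted from 1 at the 5′ end of miR-99a-5p. miR-99b-5p differs from miR-99a-5p at 4 bases, A1C, U11A, U16C and U21C. miR-125a-5p is 24 bases long and shares its first 13 bases with miR-125b-5p, which is 22 bases long. How reads that matched several of these sequences were counted is not stated, so the split between miR-99a-5p and miR-100-5p is uncertain in part. miR-125b-5p is made from 2 hairpins with the same mature sequence and is 1 entry, while miR-125b-1-3p and miR-125b-2-3p differ at 5 of 22 bases and report each hairpin on its own.

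The 6 hairpins lie in 3 polycistrons, that is, groups of hairpins on 1 strand with a let-7 hairpin between a miR-99/100 and a miR-125 hairpin. In GRCm38, which is the assembly that mm10 denotes, Mir100 is at chr9:41531425-41531504 and Mir125b-1 at chr9:41581926-41582002, 50.5 kb downstream, both in introns of the noncoding transcripts 3110039I08Rik and Gm49317. Mir99a is at chr16:77598936-77599000 and Mir125b-2 at chr16:77646273-77646343, 47.3 kb downstream, both in introns of the noncoding host gene Mir99ahg. Mir99b is at chr17:17830188-17830257 in an intron of the protein-coding gene Spaca6, and Mir125a, which overlaps an exon of Spaca6, is at chr17:17830812-17830879, 624 bp downstream of it. All lie on the plus strand. The hairpins of Mir125a and Mir125b-1 are shown because both arms of each were measured, with the arms in capitals.
Mir125a: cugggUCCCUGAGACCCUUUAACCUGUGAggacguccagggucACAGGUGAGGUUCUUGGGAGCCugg
Mir125b-1: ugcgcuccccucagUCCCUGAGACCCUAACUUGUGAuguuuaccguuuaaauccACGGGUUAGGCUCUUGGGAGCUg

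**Figure D1:**
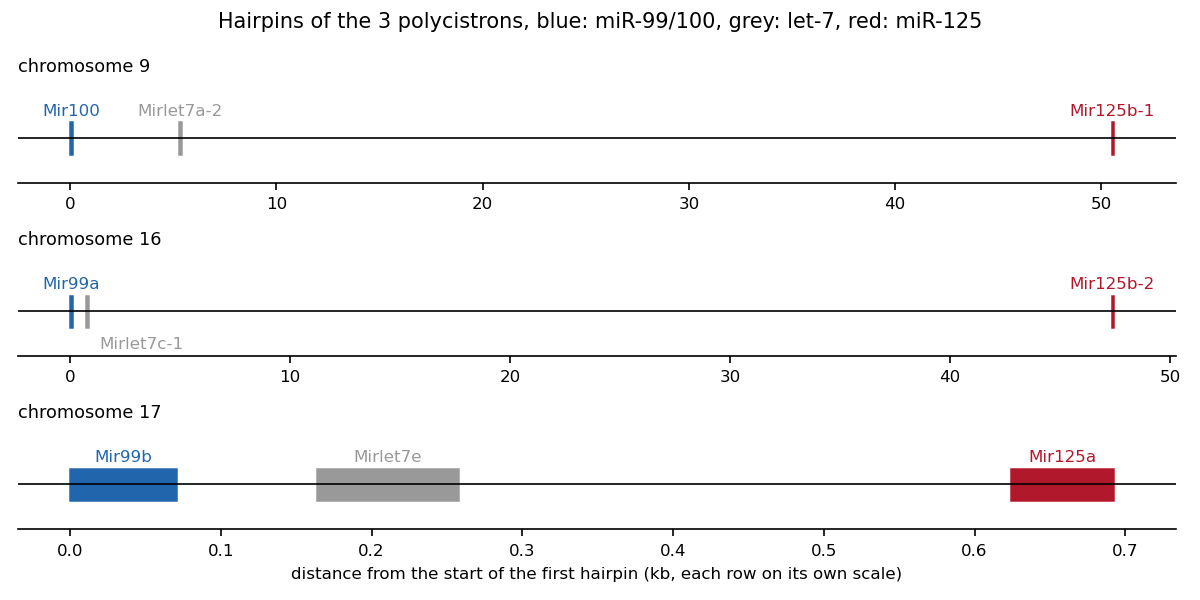
Hairpins of the 3 polycistrons along the plus strand, with the distance from the start of the first hairpin in kb on the x axis and a separate scale for each chromosome. Each box is a hairpin drawn at its length with an outline that widens the smallest ones, and Mir125a lies 624 bp from the first hairpin of its group, while Mir125b-1 and Mir125b-2 lie 50.5 and 47.3 kb from their first hairpin.

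Depth ranged from 3.89 to 15.7 M counts (M, 1000000) with Vorinostat, from 6.01 to 24.8 M in transgenic vehicle and from 0.585 to 17.6 M in wild type vehicle. Wild type vehicle replicate 1, with 0.585 M counts, and Vorinostat replicate 8, with 3.89 M, stood apart from the other 24 libraries, and values that rest on them are given with and without them. The neuron markers miR-124-3p, miR-128-3p and miR-9-5p had reads in every group and together took 34.1 to 39.5% of counts with Vorinostat, 35.3 to 38.1% in transgenic vehicle and 16.1 to 39.1% in wild type vehicle, where the lowest value was that of replicate 1. The 3 muscle markers took at most 0.0641% with Vorinostat, 0.0777% in transgenic vehicle and 0.0511% in wild type vehicle. In tissue RNA, fewer cells of a type and less miRNA per cell cannot be told apart.

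Together the 10 miRNAs took 10.3 ± 0.950% of all counts with Vorinostat (SD, n = 10), 10.5 ± 0.621% in transgenic vehicle (n = 7) and 9.86 ± 1.94% in wild type vehicle (n = 9). The range was 8.30 to 11.7% with Vorinostat, 9.50 to 11.3% in transgenic vehicle and 4.82 to 11.1% in wild type vehicle, where 4.82% was replicate 1. The miR-99/100 guide strands supplied most of this, with 7.88 ± 1.26% over all 26 libraries, against 2.26 ± 0.870% for the miR-125 guide strands. miR-99a-5p alone was 90.2% of the counts of the miR-99/100 guide strands, and miR-125b-5p was 80.8% of those of the miR-125 guide strands.

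Levels are given in CPM, which here means counts per 1000000 of the library total times a trimmed-mean (TMM) factor. Each miRNA was sequenced whole, so no length enters the comparison of levels, although ligation favours some sequences over others. miR-99a-5p had the highest level of the 10, with a mean of 71891 CPM over 26 libraries, the 3rd highest of the 605 miRNAs tested. miR-125b-5p followed at 17844.5 CPM, 12th of all. Both steps held in all 26 libraries: miR-99a-5p was above miR-125b-5p in each, and miR-125b-5p was above miR-125a-5p in each.

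The next 3 guide strands did not differ in level beyond their spread. miR-125a-5p averaged 4178 ± 1486 CPM, miR-100-5p 3804 ± 960.5 CPM and miR-99b-5p 3799 ± 2555 CPM (SD, n = 26 each). miR-125a-5p was above miR-100-5p in 14 of 26 libraries, and miR-100-5p was above miR-99b-5p in 17 of 26. A similar cluster was formed by miR-99b-3p with 187 ± 106 CPM, miR-125b-1-3p with 177 ± 106 CPM and miR-125b-2-3p with 171 ± 27.9 CPM. Below them stood miR-125a-3p with 19.6 ± 5.36 CPM and miR-99a-3p with 1.97 ± 1.03 CPM. miR-99a-3p had a median of 20 reads a library, and none in wild type vehicle replicate 1, where a count of 0 allows up to 5.13 CPM by counting error alone.

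**Figure D2:**
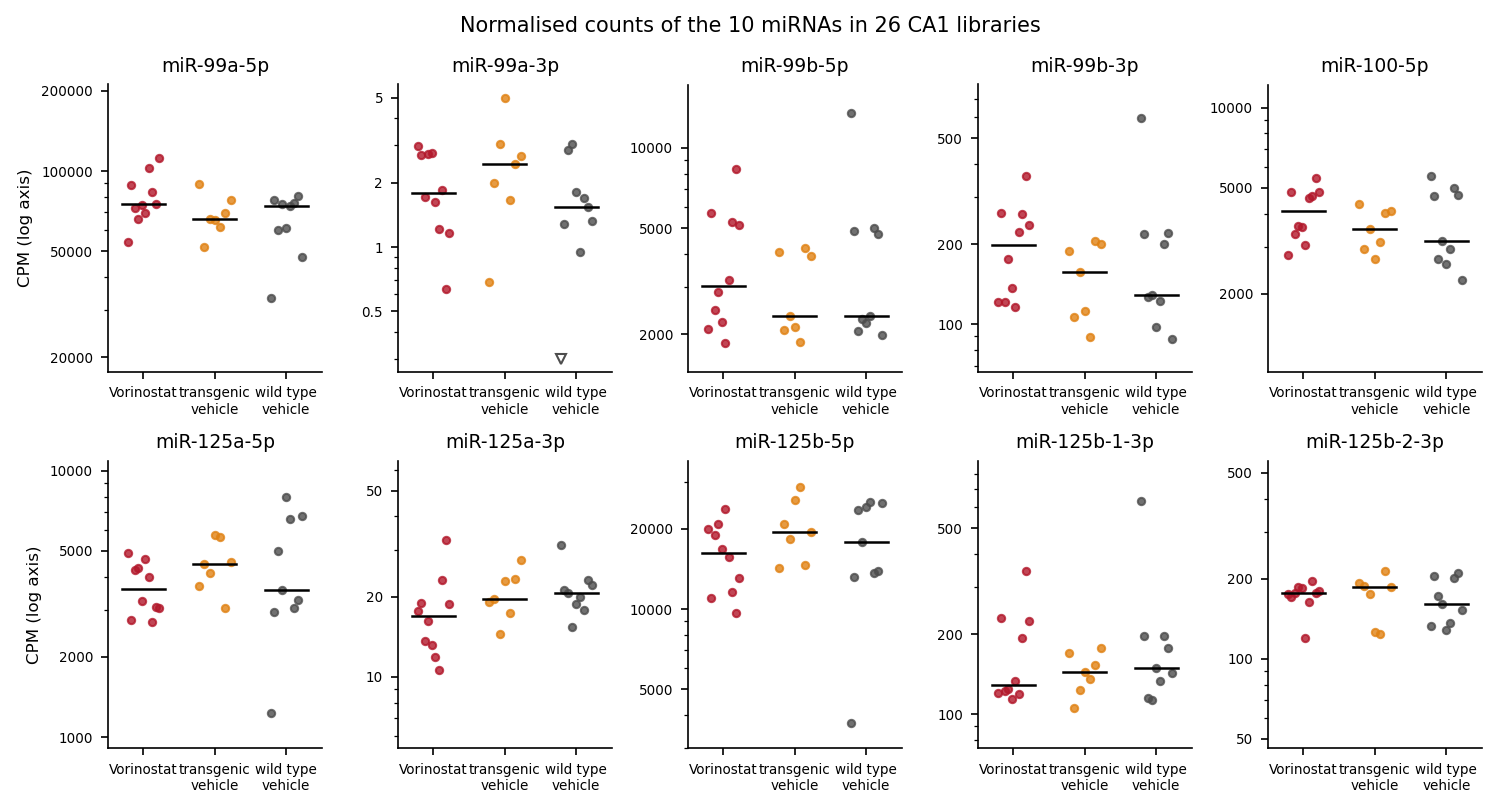
CPM of each of the 10 miRNAs in every library on a log axis, with Vorinostat, transgenic vehicle and wild type vehicle from left to right and a bar at each group's median. The open triangle marks the library with 0 reads of miR-99a-3p and has no value on the axis, and the ranges of the 3 groups overlap in every panel.

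The first question was what Vorinostat does to these miRNAs in transgenic mice. miR-99b-5p and its partner strand had higher medians with Vorinostat than in transgenic vehicle, and miR-125a-5p and miR-125b-5p had lower ones, but no difference passed the test. By edgeR's quasi-likelihood test with Benjamini-Hochberg adjustment, 0 of the 10 members were called, and 0% of the 605 miRNAs were called. At an unadjusted p under 0.05, 0 of 10 members and 3.47% of the miRNAs tested (21) were found, and the smallest adjusted p of any miRNA was 0.836. DESeq2 called 0 miRNAs, with 26 at an unadjusted p under 0.05. The CPM ranges of Vorinostat and transgenic vehicle overlapped for 10 of 10 members, and for all 605 miRNAs the share that did not overlap was 0%. The median log2 difference was 0.10 over the members and -0.01 over all miRNAs tested.

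miR-99b-5p is a guide strand of the chromosome 17 polycistron. Its lowest, median and highest levels were 1851, 3035 and 8344 CPM with Vorinostat, against 1874, 2341 and 4196 CPM in transgenic vehicle. Vorinostat replicate 8 was the highest of its group, and the transgenic vehicle values all lay within the Vorinostat range. Its log2 difference was 0.41 ± 0.38 (SE, adjusted p = 0.836 by edgeR), and 0.20 ± 0.28 without both libraries that stood apart. Within the lanes named in the read file headers it was 0.11 in lane L001 and 0.46 in lane L002.

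miR-99b-3p, cut from the other arm of the same hairpin, had 117, 198 and 361 CPM with Vorinostat as lowest, median and highest values, against 89.5, 157 and 205 CPM in transgenic vehicle. The log2 difference was 0.41 ± 0.33 (adjusted p = 0.836 by edgeR). miR-100-5p, from chromosome 9, had 2789, 4090 and 5428 CPM with Vorinostat, against 2708, 3489 and 4335 CPM in transgenic vehicle. Its log2 difference was 0.20 ± 0.19. For both, the groups overlapped, and 5 Vorinostat libraries of miR-99b-3p were above the highest transgenic vehicle library.

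miR-99a-5p, the most abundant member, had 54245, 74993 and 112003 CPM with Vorinostat, against 52051, 66226 and 89395 CPM in transgenic vehicle, with a log2 difference of 0.22 ± 0.16. Its rare partner strand miR-99a-3p had 0.636, 1.78 and 2.99 CPM with Vorinostat, against 0.686, 2.44 and 5.01 CPM in transgenic vehicle, with a log2 difference of -0.34 ± 0.33. These values overlapped widely, and counting error alone gives an SD of 0.31 on the log2 scale at the Vorinostat median of miR-99a-3p.

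The miR-125 guide strands lay on the other side. miR-125b-5p had 9690, 16294 and 23746 CPM with Vorinostat, against 14239, 19514 and 28833 CPM in transgenic vehicle, and its log2 difference was -0.33 ± 0.26 (adjusted p = 0.836 by edgeR). The lowest Vorinostat library was again replicate 8, and without both libraries that stood apart the log2 difference was -0.28 ± 0.20. By lane it was -0.21 in L001 and -0.46 in L002. miR-125a-5p had 2701, 3607 and 4914 CPM with Vorinostat, against 3045, 4484 and 5729 CPM in transgenic vehicle, with a log2 difference of -0.28 ± 0.25. Most libraries of both groups shared 1 range for each of these miRNAs.

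Of the strands from the 3′ arms of the miR-125 hairpins, miR-125a-3p had a log2 difference close to that of its guide, and those of the miR-125b hairpins did not. miR-125b-1-3p had a log2 difference of 0.26 ± 0.30 between Vorinostat and transgenic vehicle, miR-125b-2-3p of 0.00 ± 0.15 and miR-125a-3p of -0.23 ± 0.20. miR-125b-1-3p was 115, 129 and 345 CPM with Vorinostat, against 105, 143.59 and 177 CPM in transgenic vehicle, so its mean and its median differed in sign. miR-125b-2-3p had medians of 176 CPM with Vorinostat and 187 CPM in transgenic vehicle. For miR-125a-3p the value without both libraries that stood apart was -0.38 ± 0.16, with an unadjusted p of 0.0291 and an adjusted p of 0.927 by edgeR.

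In this comparison the deviations of same-numbered libraries were positively correlated in 7 of 7 pairs, although in 2 of 7 the own number gave the highest correlation. The number also runs with lane and header number, so a shared position and a pair cannot be told apart. miR-100-5p and miR-99b-3p were higher with Vorinostat in 7 of 7 pairs, and miR-99a-5p and miR-99b-5p in 6 of 7. miR-125b-5p was higher in 1 of 7 pairs, and miR-125a-5p and miR-125a-3p in 2 of 7. The mean within-pair log2 difference was 0.25 ± 0.18 for miR-100-5p (SD, n = 7 pairs) and -0.35 ± 0.36 for miR-125b-5p. With the replicate number as a block, edgeR called 0 miRNAs, members included, with a smallest adjusted p of 0.790.

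The second question was whether the transgene went along with a change in CA1. miR-99b-5p had nearly equal medians in transgenic vehicle and wild type vehicle, miR-99a-5p had a lower one in transgenic vehicle, miR-125a-5p and miR-125b-5p had higher ones, and no member passed the test. edgeR called 0 of 10 members, against 0% of the 605 miRNAs, and at an unadjusted p under 0.05 it found 0 of 10 members, against 2.15% of all (13). The smallest adjusted p was 0.980. DESeq2 called 0 miRNAs, with 18 at an unadjusted p under 0.05. Ranges overlapped for 10 of 10 members, and 0% of all miRNAs had ranges that did not overlap.

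miR-99b-5p had 1874, 2341 and 4196 CPM in transgenic vehicle as lowest, median and highest values, against 1988, 2338 and 13496 CPM in wild type vehicle. The medians were nearly equal, and wild type vehicle replicate 1 alone reached 13496 CPM, far above the next wild type library at 5001 CPM. Its log2 difference was -0.56 ± 0.38 (adjusted p = 0.980 by edgeR) with all libraries and -0.12 ± 0.28 without both that stood apart. By lane it was -0.95 in L001, which holds that library, and -0.16 in L002.

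Other members leaned on the same library. miR-125b-1-3p had 105, 143.59 and 177 CPM in transgenic vehicle, against 114, 150 and 633 CPM in wild type vehicle. Its log2 difference of -0.50 ± 0.31 became -0.10 ± 0.18 without both libraries that stood apart. That of miR-99b-3p was -0.39 ± 0.34 with all libraries and -0.00 ± 0.24 without them. miR-125b-5p had 14239, 19514 and 28833 CPM in transgenic vehicle, against 3745, 17791 and 25222 CPM in wild type vehicle, where 3745 CPM was replicate 1. The log2 difference of miR-125b-5p was 0.19 ± 0.27, and 0.02 ± 0.20 without both libraries.

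miR-125a-5p had 3045, 4484 and 5729 CPM in transgenic vehicle, against 1234, 3573 and 7998 CPM in wild type vehicle, and a log2 difference of -0.01 ± 0.26. Both extremes of the wild type range lay outside the transgenic one. miR-99a-3p had the highest positive log2 difference of the 10, with 0.49 ± 0.34, at medians of 2.44 CPM in transgenic vehicle and 1.53 CPM in wild type vehicle. miR-99a-5p (0.08 ± 0.17), miR-100-5p (-0.08 ± 0.19), miR-125a-3p (-0.01 ± 0.20) and miR-125b-2-3p (0.05 ± 0.15) had the smallest differences relative to their errors together with miR-125a-5p.

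The third question was how Vorinostat libraries compare with wild type vehicle. edgeR called 0 of 10 members, against 0% of the 605 miRNAs, and the share at an unadjusted p under 0.05 was 0 of 10 members, against 3.14% of all (19). The smallest adjusted p was 0.9997. DESeq2 called 0 miRNAs, with 29 at an unadjusted p under 0.05. Member ranges overlapped for 10 of 10, against 0% of all miRNAs with ranges that did not overlap. miR-99a-5p came closest, with 54245, 74993 and 112003 CPM with Vorinostat, against 33280, 74240 and 80290 CPM in wild type vehicle. Vorinostat replicates 6, 7, 9 and 10 were above the highest wild type library, and the other Vorinostat libraries lay within the wild type range. Its log2 difference was 0.30 ± 0.15 (unadjusted p = 0.062, adjusted p = 0.9997 by edgeR) and 0.19 ± 0.13 without both libraries that stood apart. By lane it was 0.03 in L001 and 0.36 in L002. miR-99b-5p had a log2 difference of -0.15 ± 0.35, with -0.84 in L001 and 0.30 in L002. For miR-125a-3p it was -0.24 ± 0.19, and -0.35 ± 0.16 without both libraries that stood apart (unadjusted p = 0.0361, adjusted p = 0.978 by edgeR). This comparison shares its libraries with both others, so the 3 sets of values are not independent of each other.

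**Figure D3:**
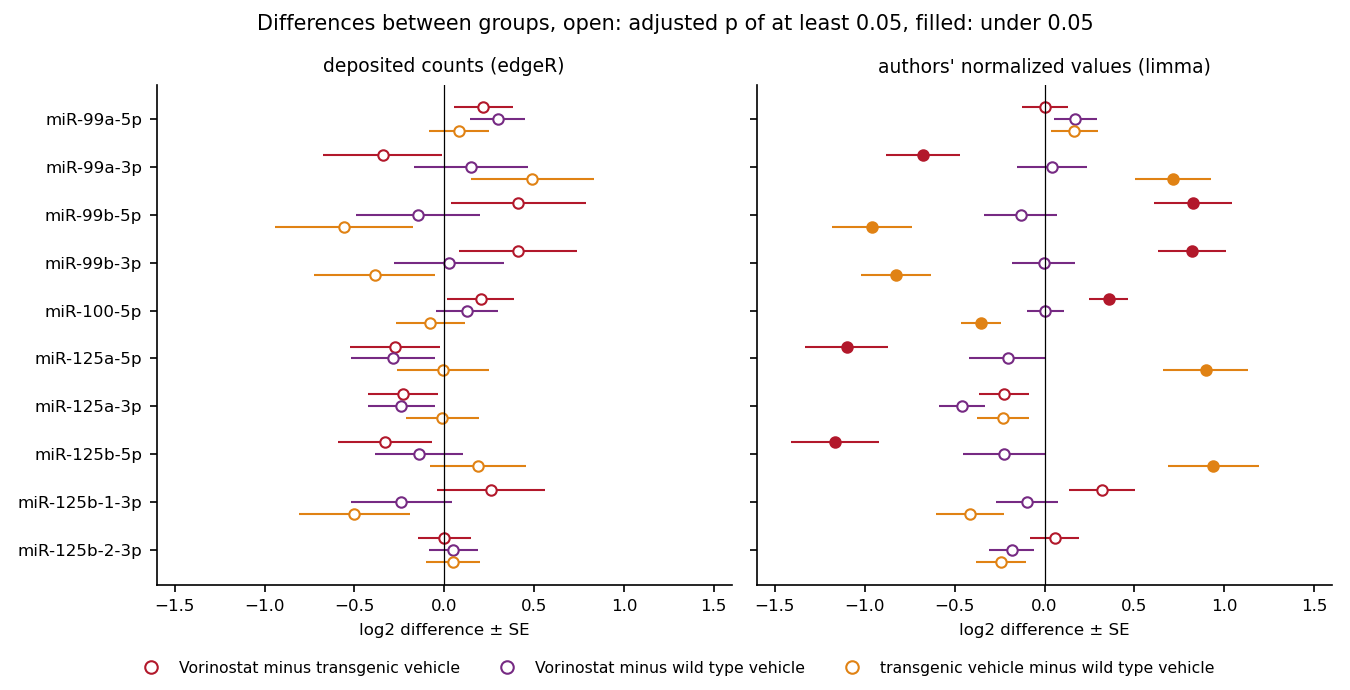
Log2 differences with their SE for the 10 miRNAs in 3 comparisons, from the deposited counts on the left and from the authors' normalized values on the right. Every point on the left is open (adjusted p of at least 0.05), and 6 miRNAs are filled in each comparison with transgenic vehicle on the right.

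Of 7 other products of the 3 polycistrons, 5 passed the filter, and let-7a-2-3p and miR-100-3p did not. edgeR called 0 of these 5 in each comparison. Their log2 differences between Vorinostat and transgenic vehicle ran from -0.37 for let-7e-3p to 0.03 for let-7c-1-3p, with a median of -0.10, and between transgenic vehicle and wild type vehicle from -0.06 for let-7a-5p to 0.15 for let-7e-3p, with a median of -0.02. let-7c-5p, the most abundant partner, had medians of 30107 CPM with Vorinostat, 33877 CPM in transgenic vehicle and 33660 CPM in wild type vehicle. Of 6 other let-7 family guide strands, 0 were called in any comparison, with values between -0.32 for let-7b-5p and 0.34 for let-7i-5p for Vorinostat against transgenic vehicle.

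miRNAs with the same seed or of related sequence outside the families were also looked up. miR-351-5p shares the miR-125 seed and had 3962 reads in all libraries together. Its log2 difference was -0.16 ± 0.13 between Vorinostat and transgenic vehicle and 0.09 ± 0.13 between transgenic vehicle and wild type vehicle. miR-6394 and miR-6367 carry the same seed and had 0 reads. miR-10a-5p and miR-10b-5p, relatives of miR-99/100 encoded in the Hox clusters, were not called either. The log2 difference of miR-10b-5p was 1.07 ± 0.71 between Vorinostat and transgenic vehicle, and that of miR-10a-5p was 0.71 ± 0.32 (unadjusted p = 0.0358, adjusted p = 0.836 by edgeR).

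Ratios of counts within a library need no scaling factor and were compared for 9 pairs in 3 comparisons, 27 exact permutation tests in all, two-sided. The arms of Mir99b kept the tightest of the 9 ratios over 26 libraries, with an SD of 0.21 on the log2 scale, while miR-99a-5p over miR-100-5p was tighter without both libraries that stood apart, at 0.20 against 0.21. In Mir99b the guide had 18.7 times the counts of its partner strand with Vorinostat, 19.7 times in transgenic vehicle and 22.4 times in wild type vehicle at the median. Over 26 libraries this ratio stayed between 14.4 and 24.9. In contrast, miR-125a-5p had between 38.3 and 424 times the counts of miR-125a-3p, and 117 to 424 times without both libraries that stood apart. miR-99a-5p exceeded miR-99a-3p by a median of 34048 times.

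None of the 27 differences in ratio passed the test, with a smallest adjusted p of 0.897. miR-99b-5p over miR-125a-5p, which come from hairpins 624 bp apart, had a median ratio of 0.741 with Vorinostat, 0.566 in transgenic vehicle and 0.640 in wild type vehicle. The ratio ran from 0.398 to 2.72 with Vorinostat, from 0.333 to 1.38 in transgenic vehicle and from 0.275 to 10.9 in wild type vehicle. Its mean log2 difference between Vorinostat and transgenic vehicle was 0.59 (exact permutation test, p = 0.213, adjusted p = 0.897). Within the 7 same-numbered pairs it was 0.68 (exact sign-flip test over the pairs, p = 0.0156, the smallest that 7 pairs allow, and adjusted p = 0.281). The labels state no pairing, and the pairs were taken because of correlations in these same data. That unadjusted p is therefore no support for a difference. The ratio of the 2 miR-125b hairpins, miR-125b-2-3p over miR-125b-1-3p, had medians of 1.18 with Vorinostat, 1.14 in transgenic vehicle and 1.04 in wild type vehicle.

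Spread between libraries was far larger than counting error. In the plot of deviations by library, miR-99b-5p, miR-99b-3p and miR-100-5p were high where miR-125a-5p and miR-125b-5p were low. The SD of log2 CPM over all libraries was 0.75 for miR-99b-5p and 0.61 for miR-125b-5p, against counting errors of 0.0078 and 0.0033 at their median counts. miR-99b-5p was above 3000 CPM in Vorinostat replicates 6, 7, 8, 9 and 10, in transgenic vehicle replicates 8, 9 and 10 and in wild type vehicle replicates 1, 2, 7 and 8. In these 12 libraries miR-125b-5p was below its median of 18050 CPM, with the exception of transgenic vehicle replicate 9 at 19514 CPM.

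**Figure D4:**
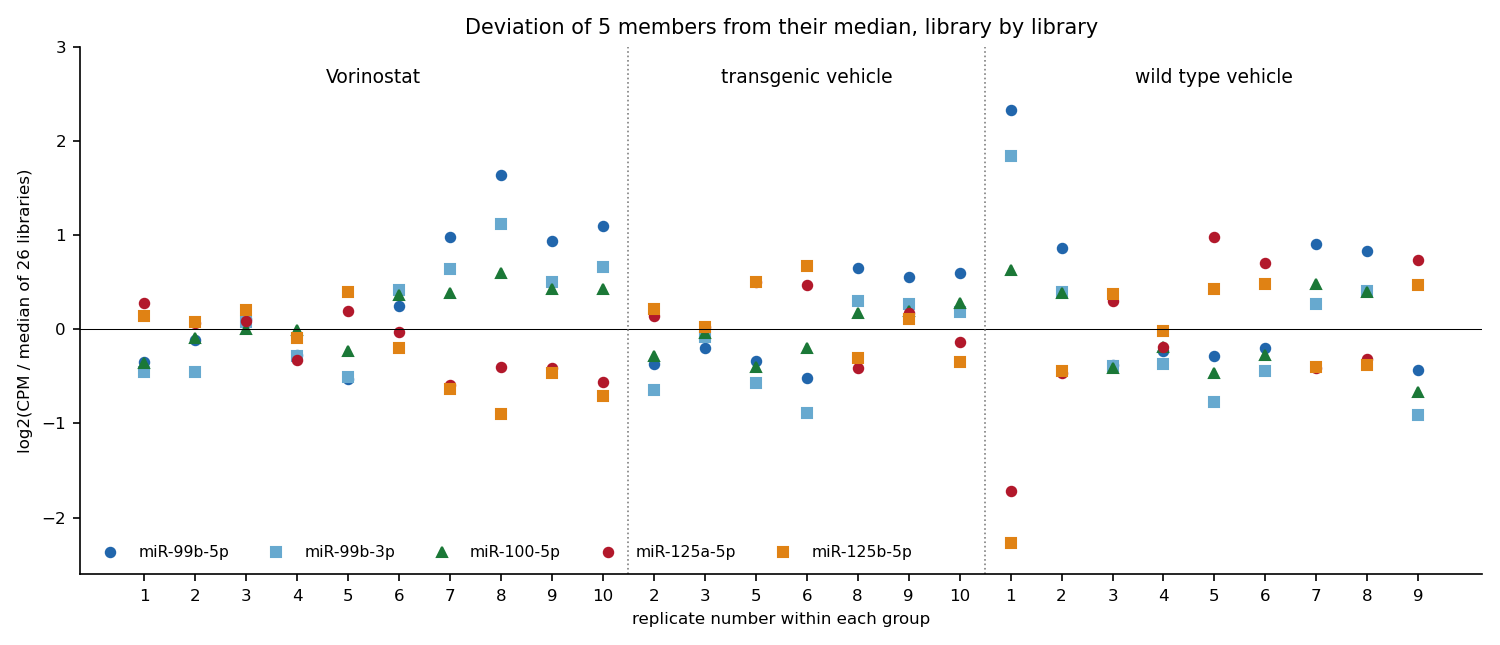
Log2 of CPM over the median of 26 libraries for 5 members, 1 column per library, with the replicate number on the x axis and Vorinostat, transgenic vehicle and wild type vehicle from left to right. In wild type vehicle replicate 1 and Vorinostat replicate 8, miR-99b-5p is the highest and miR-125b-5p the lowest of their group, and smaller opposite deviations are seen in every group.

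The constancy of ratios was measured for each of the 45 pairs of members as the SD of their log2 CPM ratio over the 24 libraries without both that stood apart. The scaling factor cancels in a ratio, and a smaller SD means that a pair kept closer to a fixed ratio. miR-125a-5p and miR-125b-5p formed the closest pair with an SD of 0.18, although their hairpins lie on different chromosomes. miR-99a-5p and miR-100-5p, with 1 base between them, followed at 0.20. miR-99b-5p and miR-99b-3p had 0.21, and miR-99b-3p and miR-100-5p had 0.22. This order depended on the libraries left out. In all 26, miR-99b-5p and miR-99b-3p were the closest pair at 0.215, with miR-125a-5p and miR-125b-5p at 0.217. There miR-99a-5p and miR-100-5p had 0.40, and miR-99b-3p and miR-100-5p had 0.35. Pairs that share a seed had a median SD of 0.29 over 5 pairs in the 24 libraries, with miR-99a-3p and miR-99b-3p as the exception at 0.86. In all 26 libraries that median was 0.44.

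Members of the same polycistron varied in closeness: miR-100-5p and miR-125b-1-3p had an SD of 0.27 and miR-99a-5p and miR-125b-2-3p 0.33. The median SD was 0.66 over the 10 pairs that share a polycistron but no hairpin, against 0.55 over all 45 pairs. In all 26 libraries these medians were 0.69 and 0.71. Some of these 10 pairs include miR-125b-5p, made from hairpins of 2 polycistrons, or miR-99a-3p, with a median of 20 reads. Among the pairs without them, miR-125a-3p had 0.55 with miR-99b-5p and 0.56 with miR-99b-3p, and miR-99b-3p had 0.89 with miR-125a-5p. miR-99b-5p and miR-125a-5p had an SD of 0.95, where 0.72 would be expected of unrelated values with their own SDs of 0.57 and 0.44. A like gap was found for miR-100-5p and miR-125b-5p, at 0.72 where unrelated values give 0.53. miR-125b-5p, 1 entry for 2 hairpins, had 0.67 with miR-125b-1-3p and 0.61 with miR-125b-2-3p, above the values of 0.52 and 0.47 for unrelated ones. As it joins both hairpins, neither value compares the 2 arms of 1 hairpin alone. In all, 20 of 45 pairs had a wider ratio than unrelated values in 24 libraries, and 21 in all 26. Unlike the ratio itself, that comparison uses the SD of each CPM and so depends on the scaling. Unrelated pairs also fall on both sides of that value, and the share over pairs of all miRNAs is not given. The count is therefore no measure of opposite movement among the members. These values describe 24 libraries from 2 lanes, and no test was made of them.

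**Figure D5:**
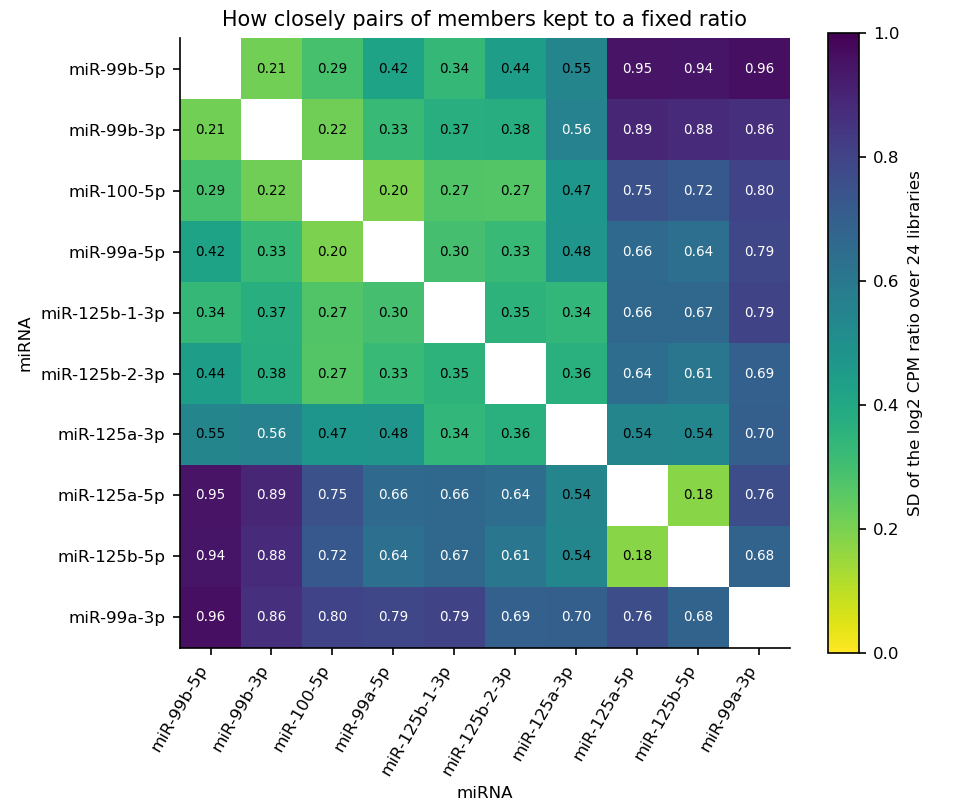
SD of the log2 CPM ratio over 24 libraries for each pair of the 10 miRNAs, on a colour scale from 0 (a constant ratio) to 1, with the value printed in each cell. miR-125a-5p and miR-125b-5p are close to each other (0.18) and far from miR-99b-5p (0.95 and 0.94).

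Sequence features of both sides were set side by side. miR-99b-5p and miR-99b-3p are 63.6% G and C, miR-125b-1-3p 59.1%, and miR-100-5p, miR-125a-5p and miR-125b-5p 50%. miR-99b-5p, miR-99b-3p and miR-100-5p end in G at the 3′ end, miR-125b-1-3p in U, and miR-125a-5p and miR-125b-5p in A. miR-99a-5p is 50% G and C and ends in G. Whether the share of G and C or the last base has a part in the opposite deviations was not tested.

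The read file headers hold a lane and a running number from 1 to 29 whose meaning the sources used here do not give. miR-99b-5p exceeded 3000 CPM in 9 of the 10 libraries numbered 20 or above, with wild type vehicle replicate 9 as the exception, and in 3 of the 16 numbered below 20. In the first set its median was 4879 CPM and that of miR-125b-5p 13780 CPM, and in the second set 2253 and 20386 CPM. Both cut-offs were chosen after these values were seen. All 3 groups have libraries on both sides, and the part of the number in the deviations was not tested. By lane without both libraries that stood apart, miR-99b-5p averaged 2417 ± 348 CPM in L001 (SD, n = 4) and 4230 ± 1647 CPM in L002 (n = 5) with Vorinostat, 2181.9 ± 139 CPM (n = 3) and 3518 ± 1101 CPM (n = 4) in transgenic vehicle, and 2752 ± 1195 CPM (n = 5) and 3915 ± 1674 CPM (n = 3) in wild type vehicle.

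The miRNAs outside the families whose level kept closest to a member were listed by the same SD, among 331 with a mean of at least 10 CPM. For miR-99b-5p they were miR-674-3p (0.14) and miR-666-5p (0.16), against a median of 0.64 over all candidates. For miR-100-5p they were miR-1843a-5p (0.13) and miR-192-5p (0.13), and for miR-99a-5p miR-24-2-5p (0.15) and let-7i-5p (0.17). miR-125b-5p kept closest to the neuron marker miR-124-3p (0.16), and to miR-29a-3p (0.16), and miR-125a-5p to let-7d-5p (0.14) and miR-328-3p (0.18). None of those named comes from the polycistron of its member. With all 26 libraries the nearest was again miR-674-3p for miR-99b-5p (0.17) and let-7d-5p for miR-125a-5p (0.16), and it was miR-126a-3p for miR-99a-5p, let-7i-5p for miR-100-5p and miR-29a-3p for miR-125b-5p.

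The authors' own normalized values, a log2 table of 674 miRNAs that holds all 10 members, gave another picture. The sources used here do not say how it was made. In it limma called 6 of 10 members between Vorinostat and transgenic vehicle, against 53.7% of all miRNAs called (362), and 6 of 10 between transgenic vehicle and wild type vehicle, against 54.5% of all (367). Between Vorinostat and wild type vehicle it called 0 of 10, against 0.89% of all (6), and 1 member reached an unadjusted p under 0.05 there. Without both libraries that stood apart, limma called 1 of 10 members in that comparison, against 19 of all 674 miRNAs. That member was miR-125a-3p (-0.51 ± 0.13, adjusted p = 0.0283 by limma). With lane as a covariate limma called 7 of 10 members between transgenic vehicle and wild type vehicle, against 359 of all 674 miRNAs. The additional member was miR-125b-1-3p (-0.47 ± 0.19, adjusted p = 0.0393 by limma). With all libraries and no covariate, the share of members called in both comparisons with transgenic vehicle was thus near the share of all miRNAs.

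Both comparisons with transgenic vehicle share its 7 libraries, so their calls are not independent. Between Vorinostat and transgenic vehicle, miR-99b-5p rose by 0.83 ± 0.22 on the log2 scale (adjusted p = 0.00395 by limma), miR-99b-3p by 0.82 ± 0.19 and miR-100-5p by 0.36 ± 0.11. miR-125b-5p fell by 1.16 ± 0.25 (adjusted p = 0.00227 by limma), miR-125a-5p fell by 1.10 ± 0.23 and miR-99a-3p fell by 0.67 ± 0.21. Between transgenic vehicle and wild type vehicle, miR-125b-5p was higher by 0.94 ± 0.25, miR-125a-5p by 0.90 ± 0.24 and miR-99a-3p by 0.72 ± 0.21, and miR-99b-5p fell by 0.96 ± 0.22, miR-99b-3p by 0.83 ± 0.19 and miR-100-5p by 0.35 ± 0.11. miR-99b-5p, miR-99b-3p and miR-125b-5p did not overlap between Vorinostat and transgenic vehicle, against 13.6% of all miRNAs, and miR-99b-3p did not overlap between transgenic vehicle and wild type vehicle, against 7.57% of all. In the counts, all of these ranges overlapped.

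Group means and spreads both differed between the sources. The SD of miR-99b-5p on the log2 scale was 0.32 with Vorinostat, 0.31 in transgenic vehicle and 0.64 in wild type vehicle in the authors' values, against 0.74, 0.52 and 0.93 in log2 CPM for the groups in that order. For miR-125b-5p the authors' value minus log2 CPM was 1.01 ± 0.43 with Vorinostat (SD, n = 10), 1.83 ± 0.44 in transgenic vehicle (n = 7) and 1.21 ± 0.26 in wild type vehicle (n = 9). For miR-125a-5p it was -0.77 ± 0.40 with Vorinostat, 0.05 ± 0.37 in transgenic vehicle and -0.70 ± 0.28 in wild type vehicle. miR-99b-5p had the opposite order, with -0.44 ± 0.54 with Vorinostat, -0.95 ± 0.51 in transgenic vehicle and -0.32 ± 0.45 in wild type vehicle. For miR-99b-5p the mean offset of transgenic vehicle differed from those of the other groups by about as much as the SD within a group. For miR-125b-5p and miR-125a-5p the mean offset of transgenic vehicle was above both others by more than the SD within any group. Of the let-7 partners, limma called 5 of 5 lower with Vorinostat than in transgenic vehicle in the authors' values, from -0.20 for let-7c-5p to -1.11 for let-7e-3p, with a median of -0.45. Over all 674 miRNAs, 251 were called lower in that comparison and the median was -0.24. Between transgenic vehicle and wild type vehicle it called 3 of 5 partners higher and 0 lower, with a median of 0.41, against 230 of 674 miRNAs called higher and a median of 0.19 over all.

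The authors' deposited table of co-expression modules also set miR-99b-5p, miR-99b-3p and miR-100-5p apart from miR-125a-5p and miR-125b-5p, but not miR-99a-5p. It put miR-125a-5p, miR-125b-5p, miR-99a-5p and miR-99a-3p in the turquoise module of 404 miRNAs, and miR-99b-5p, miR-99b-3p, miR-100-5p and miR-125b-1-3p in the blue module of 197. miR-125b-2-3p was in the brown module and miR-125a-3p in the green one. In the authors' deposited table, miR-125b-5p had a membership of 0.98 in turquoise and -0.93 in blue, and miR-99b-5p had -0.96 in turquoise and 0.98 in blue, on a scale from -1 to 1. The modules were built on these libraries, so they are no independent support for the opposite deviations. The membership of miR-99a-5p was 0.52 in turquoise, 0.68 in yellow and -0.74 in green. In that table, miR-99a-5p and its close relative miR-100-5p belonged to different modules, while in the counts their ratio ran from 13.9 to 25.1 in 25 libraries and was 6.03 in wild type vehicle replicate 1. Over 24 libraries the SD of the log2 ratio of miR-99a-5p was 0.20 with miR-100-5p and 0.66 with miR-125a-5p. Over all 26 libraries these SDs were 0.40 and 0.65.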

How the data were processed

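The submitters' labels name the TruSeq Small RNA kit and a HiSeq2000 run with single reads of 50 bp, while FastQC 0.11.5 and mm10 are listed in the submitters' processing notes. Aligner and counting rule are not stated in the sources. Deposited by the authors were counts of reads per mature miRNA, normalized values on a log2 scale, and module membership scores with their p-values, and the deposited p-values were not used.

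Counts were tested with edgeR 4.0.16 (quasi-likelihood, TMM, filterByExpr with min.count 10 and min.total.count 15, 1 fit of 3 groups without covariates, two-sided, Benjamini-Hochberg over 605 miRNAs, threshold 0.05). DESeq2 1.42.0, and limma 3.58.1 on the authors' log2 values, were alternatives, beside scaling, filter, lane, replicate block and left-out libraries. Ratios used a pseudocount of 0.5 reads. The edgeR step was tested on simulated data. Depth per library ran from 0.585 to 24.8 M counts. Limits from a count of 0 use 3 counts, leave out the TMM factor and cover counting error only.

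Groups came from the genotype and agent labels. Whether libraries came from separate animals is not labelled, and p-values then reflect variation between libraries, which may be technical. Same-numbered libraries were taken as pairs for Vorinostat against transgenic vehicle, where their deviations over all miRNAs correlated at 0.257 to 0.639 in 7 of 7 pairs, all over 0.1, with the own number highest in 2. In the other comparisons this held in 4 of 6 and 6 of 9 pairs, and their numbers were used only in the alternative with a replicate block. The members, lists and rules were chosen with earlier results of these data known. All 10 members are named, partners and relatives come from lists by polycistron, let-7 family and seed, and for each guide strand the 2 nearest miRNAs outside the families are named. Positions are from the GENCODE annotation of GRCm38 and sequences from RefSeq GRCm38.p6, where all 10 members matched.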

Additional observations from a re-analysis of the deposited data

Results flagged for a closer look

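In 14 of 57 sets of values of 1 group, the highest or lowest library lay far from the next, relative to the group's range. Chance alone is taken to flag about 1 set in 20. The sets share libraries and miRNAs and are not independent, so 14 of 57 is not read as an excess over chance. In CPM, wild type vehicle replicate 1 stood out for miR-99b-5p at 13496 CPM, miR-99b-3p at 597 CPM, miR-125a-3p at 31.2 CPM and miR-125b-1-3p at 633 CPM. Vorinostat replicate 8 stood out for miR-125b-1-3p at 345 CPM, and Vorinostat replicate 5 for miR-125b-2-3p at 119 CPM, the lowest of its group. In log2 count ratios, wild type vehicle replicate 1 stood out for miR-125a-5p/miR-125a-3p at 5.26, miR-125b-5p/(miR-125b-1-3p + miR-125b-2-3p) at 2.29, miR-125b-2-3p/miR-125b-1-3p at -2.24, miR-99a-5p/miR-100-5p at 2.59, miR-99b-5p/let-7e-5p at 3.42 and miR-99b-5p/miR-125a-5p at 3.45. Vorinostat replicate 8 stood out for miR-99a-5p/miR-100-5p at 3.79, and transgenic vehicle replicate 3 for miR-99b-5p/miR-99b-3p at 3.90. The library with the fewest counts, wild type vehicle replicate 1, accounts for most of these sets, and its depth moves with them; the part of depth was not tested.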

How the results depend on the processing

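In the counts, 0 miRNAs passed the threshold under each alternative tried, the replicate block and each library left out in turn included. The main setting had 0 calls as well, so there was no call that an alternative could lose. Many small differences changed sign: 15 of the 30 log2 differences of members and 16 of the 27 differences in log2 ratio did so under an alternative or with 1 library left out, and the cause was not tested. The authors' normalized values gave 362 calls for Vorinostat minus transgenic vehicle, 367 for transgenic vehicle minus wild type vehicle and 6 for Vorinostat minus wild type vehicle. The next 2 alternatives were chosen after seeing the data. Without both libraries that stood apart, those values gave 384, 348 and 19 calls in the same order of comparisons, and with lane as a covariate 369, 359 and 4.

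Log2 differences of members that took the opposite sign are given by setting. With DESeq2 these were for Vorinostat minus transgenic vehicle miR-125b-2-3p (-0.063), and for Vorinostat minus wild type vehicle miR-125b-2-3p (-0.017) and miR-99b-3p (-0.070), and for transgenic vehicle minus wild type vehicle miR-125a-3p (0.013). With RLE scaling factors these were for Vorinostat minus transgenic vehicle miR-125b-2-3p (-0.062), and for Vorinostat minus wild type vehicle miR-125b-2-3p (-0.0097) and miR-99b-3p (-0.068). In the authors' normalized values these were for Vorinostat minus wild type vehicle miR-125b-2-3p (-0.18) and miR-99b-3p (-0.0043), and for transgenic vehicle minus wild type vehicle miR-125a-5p (0.90) and miR-125b-2-3p (-0.24). In those values with lane as a covariate these were for Vorinostat minus wild type vehicle miR-100-5p (-0.0030) and miR-125b-2-3p (-0.14), and for transgenic vehicle minus wild type vehicle miR-125a-5p (0.88) and miR-125b-2-3p (-0.20). In those values without both libraries that stood apart these were for Vorinostat minus wild type vehicle miR-125b-2-3p (-0.19), and for transgenic vehicle minus wild type vehicle miR-125a-5p (0.71) and miR-125b-2-3p (-0.29). In lane L001 alone these were for Vorinostat minus transgenic vehicle miR-125b-1-3p (-0.078), and for Vorinostat minus wild type vehicle miR-100-5p (-0.12), miR-125b-5p (0.038) and miR-99b-3p (-0.56), and for transgenic vehicle minus wild type vehicle miR-125a-5p (0.048) and miR-99a-5p (-0.065). In lane L002 alone these were for Vorinostat minus transgenic vehicle miR-125b-2-3p (-0.12), and for Vorinostat minus wild type vehicle miR-125b-1-3p (0.25), miR-125b-2-3p (-0.19) and miR-99b-5p (0.30), and for transgenic vehicle minus wild type vehicle miR-125a-3p (0.046), miR-125b-2-3p (-0.072) and miR-99b-3p (0.0053). With lane as a covariate these were for Vorinostat minus wild type vehicle miR-99b-3p (-0.12), and for transgenic vehicle minus wild type vehicle miR-125a-5p (0.034). With no filter these were for Vorinostat minus transgenic vehicle miR-125b-2-3p (-0.033), and for transgenic vehicle minus wild type vehicle miR-125a-3p (0.028). With the replicate block these were for Vorinostat minus transgenic vehicle miR-125b-2-3p (-0.00051), and for transgenic vehicle minus wild type vehicle miR-99a-5p (-0.010). Without both libraries that stood apart these were for Vorinostat minus transgenic vehicle miR-125b-2-3p (-0.017), and for Vorinostat minus wild type vehicle miR-125b-2-3p (-0.020) and miR-99b-5p (0.073), and for transgenic vehicle minus wild type vehicle miR-100-5p (0.00087), miR-125a-3p (0.029), miR-125b-2-3p (-0.0029) and miR-99a-5p (-0.018).

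Differences in log2 ratio that took the opposite sign follow. In lane L001 alone these were for Vorinostat minus transgenic vehicle miR-125a-5p/miR-125a-3p (0.11) and miR-125b-2-3p/miR-125b-1-3p (0.20), and for Vorinostat minus wild type vehicle miR-99a-5p/miR-99a-3p (-0.48), miR-99b-5p/let-7e-5p (-0.37) and miR-99b-5p/miR-125a-5p (-0.60). In lane L002 alone these were for Vorinostat minus wild type vehicle miR-125a-5p/let-7e-5p (-0.012), miR-125a-5p/miR-125a-3p (-0.090), miR-125b-2-3p/miR-125b-1-3p (-0.36) and miR-125b-5p/(miR-125b-1-3p + miR-125b-2-3p) (-0.35), and for transgenic vehicle minus wild type vehicle miR-125a-5p/miR-125a-3p (-0.020) and miR-99a-5p/miR-99a-3p (0.013). With the replicate block these were for Vorinostat minus transgenic vehicle miR-125a-5p/miR-125a-3p (0.036), and for Vorinostat minus wild type vehicle miR-99b-5p/miR-125a-5p (-0.0018), and for transgenic vehicle minus wild type vehicle miR-125a-5p/let-7e-5p (-0.074), miR-125a-5p/miR-125a-3p (-0.14), miR-99a-5p/miR-100-5p (-0.10) and miR-99b-5p/miR-125a-5p (0.074). Without both libraries that stood apart these were for Vorinostat minus transgenic vehicle miR-125a-5p/miR-125a-3p (0.13), and for Vorinostat minus wild type vehicle miR-125a-5p/let-7e-5p (-0.036), miR-125b-5p/(miR-125b-1-3p + miR-125b-2-3p) (-0.22) and miR-99a-5p/miR-99a-3p (-0.0076), and for transgenic vehicle minus wild type vehicle miR-125a-5p/let-7e-5p (-0.0052), miR-125a-5p/miR-125a-3p (-0.094) and miR-99a-5p/miR-100-5p (-0.057). With a pseudocount of 5 reads these were for transgenic vehicle minus wild type vehicle miR-99a-5p/miR-99a-3p (0.019).

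With 1 library left out at a time, the log2 differences that crossed 0 were for Vorinostat minus transgenic vehicle miR-125b-2-3p (-0.13 to 0.050), and for Vorinostat minus wild type vehicle miR-125b-1-3p (-0.40 to 0.13), miR-125b-2-3p (-0.032 to 0.10), miR-99a-3p (-0.0071 to 0.24), miR-99b-3p (-0.10 to 0.38) and miR-99b-5p (-0.34 to 0.26), and for transgenic vehicle minus wild type vehicle miR-100-5p (-0.14 to 0.043), miR-125a-3p (-0.071 to 0.054), miR-125a-5p (-0.17 to 0.14), miR-125b-2-3p (-0.0050 to 0.13) and miR-99a-5p (-0.020 to 0.14). With 1 library left out at a time, the differences in log2 ratio that crossed 0 were for Vorinostat minus transgenic vehicle miR-125a-5p/miR-125a-3p (-0.13 to 0.13) and miR-99a-5p/miR-100-5p (-0.016 to 0.071), and for Vorinostat minus wild type vehicle miR-125a-5p/let-7e-5p (-0.089 to 0.17), miR-125a-5p/miR-125a-3p (-0.10 to 0.33), miR-125b-2-3p/miR-125b-1-3p (-0.073 to 0.31), miR-125b-5p/(miR-125b-1-3p + miR-125b-2-3p) (-0.36 to 0.18), miR-99a-5p/miR-100-5p (-0.042 to 0.22) and miR-99b-5p/miR-125a-5p (-0.088 to 0.58), and for transgenic vehicle minus wild type vehicle miR-125a-5p/let-7e-5p (-0.0052 to 0.25), miR-125a-5p/miR-125a-3p (-0.094 to 0.34) and miR-99a-5p/miR-100-5p (-0.057 to 0.20). For miR-99a-3p, with a median of 20 reads a library, the SD of log2 CPM was 0.71, against 0.32 from counting alone.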
